A study of Mus musculus with 12 samples.

Results

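Mitochondrial ribosomal protein genes are the nuclear genes whose symbols begin with Mrpl or Mrps and a number. They were taken by that symbol among the protein-coding genes of the deposited count table, after its identifiers had been matched to mouse gene names on build GRCm38, and 78 of 55471 genes were found. Of these 78 members, 77 had enough reads to be tested. The exception was Mrpl53, a large subunit gene with 0 counts in all 12 libraries, 88.0% of whose exon bases lie under Gm42688 on the same strand.

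RNA was sequenced from LSK cells, the lineage-negative, Sca1-positive and Kit-positive fraction that contains haematopoietic stem cells together with early progenitors. The mice were primary transplant recipients, 6 weeks past tamoxifen treatment in every group. One set of libraries compares dKO (loss of both Hoxa9 and β-catenin), HOXA9_KO (loss of the homeobox factor Hoxa9) and Bcat_KO (loss of β-catenin, gene Ctnnb1) with WT, and a second compares PRMT1_KO (loss of the arginine methyltransferase Prmt1) with WT_PRMT1, each group with 2 libraries. The titles call the groups KO whereas the genotype field speaks of knockdown, and the sources used here do not give the Cre driver, the deleted exons, how donor cells were told from those of the host, or whether the 2 libraries of a group are of separate mice. The p-values may therefore measure technical spread only. The title of the series asks how β-catenin and Hoxa9 preserve DNA replication, genome integrity and stem cell function through Prmt1.

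The mitochondrion keeps a ribosome of its own, which makes the membrane subunits of the respiratory chain and the ATP synthase that its small genome encodes. Its ribosomal RNAs are transcribed inside the organelle, but every ribosomal protein is made in the cytosol from a nuclear gene and imported, so both genomes must be read together. Some of these proteins descend from bacterial ribosomal proteins and others have been added in the mitochondrial lineage. Blood-forming stem cells are known to depend on mitochondrial quality although they make much of their energy by glycolysis.

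By these roles, 30 of the 78 genes encode large subunit proteins with a bacterial counterpart and 21 encode large subunit proteins specific to mitochondria. Of the remaining genes, 16 encode small subunit proteins with a bacterial counterpart and 10 encode small subunit proteins specific to mitochondria. The genes Mrps30 and Mrps18a are counted in the large subunit, where their proteins sit in spite of their names. Mrps36 was not placed, since its protein is now known as a part of the 2-oxoglutarate dehydrogenase complex.

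The libraries held 17569709 to 40553891 counts. The targeted genes were lower in the groups named for them: Hoxa9 was at 9.20 and 8.91 CPM (counts scaled to the library total) in dKO and 12.2 and 8.36 CPM in HOXA9_KO, against 58.6 and 59.8 CPM in WT. Ctnnb1 was at 227 and 235 CPM in dKO and 276 and 267 CPM in Bcat_KO, against 314 and 342 CPM in WT, and Prmt1 was at 118 and 111 CPM in PRMT1_KO, against 283 and 292 CPM in WT_PRMT1. In the test described below, Prmt1 was also called lower than in WT in dKO (-0.35 ± 0.071, adjusted p = 0.00206) and in HOXA9_KO (-0.27 ± 0.071, adjusted p = 0.029). It was not called in Bcat_KO (-0.10 ± 0.071, adjusted p = 0.347). The female-specific RNA Xist stood at 11.2 and 21.9 CPM in Bcat_KO and at 0 to 0.758 CPM in the other knockout libraries. It stood at 163 to 202 CPM in the WT and WT_PRMT1 libraries. The Y-linked Ddx3y stood at 60.6 to 93.4 CPM in the knockout libraries and at 0.791 to 2.86 CPM in the WT and WT_PRMT1 libraries. Genotype and sex therefore cannot be told apart in any comparison of a knockout with WT or WT_PRMT1. Xist was also lower in dKO than in Bcat_KO (log2 change -4.99 ± 0.63, adjusted p = 0.00187 in the test described below), and the reason was not tested. No mitochondrial ribosomal protein gene lies on the X chromosome. The Bcat_KO libraries had the 2 largest totals (29943990 and 40553891 counts). Olfactory and vomeronasal receptor genes summed to 15.1 and 11.2 CPM in Bcat_KO and to 63.3 to 180 CPM in the other libraries. The tag S4 is carried by a Bcat_KO and by a HOXA9_KO library, and the labels used here give no batch. The part of a batch in the comparisons with Bcat_KO was not tested. All 7 LSK markers were detected in every library, with a summed level of 990 to 1098 CPM in dKO, 1214 to 1357 in HOXA9_KO, 1743 to 1780 in Bcat_KO and 1732 to 1886 in WT, and 1961 to 2063 in PRMT1_KO against 1544 to 1622 in WT_PRMT1. Single markers went both ways in the test described below. Of the 7, 3 were called higher and 4 lower in dKO, and 3 and 3 in HOXA9_KO. The counts were 2 and 2 in Bcat_KO and 4 and 1 in PRMT1_KO.

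The 78 genes were spread over 17 chromosomes, and many stood back to back with another gene. In 25 of them (32.1%), the start of another protein-coding gene on the opposite strand lay within 500 bases of their own start (upstream in 17 and inside the gene in 8), and the same distance rule held for 1947 of 21974 protein-coding genes in all (8.9%). RefSeq promoters of 300 bases (250 before the start and 50 after it, GRCm38.p6) were found for 69 of the 78 genes and for 16513 protein-coding genes. The letters CCGGAAG, the core bound by ETS factors such as the GABP complex, were found on either strand in 25 of the 69 promoters (36.2%), against 12.3% of all coding promoters. AAGATGGC, a core of YY1 sites, was found in 12 (17.4%, against 3.29%), and TGCGCA, which shares part of its letters with the longer NRF1 palindrome, in 21 (30.4%, against 10.3%). The longer NRF1 palindrome was in 3 (4.35%, against 1.38%), and the E-box CACGTG, the site of Myc and other factors, in 5 (7.25%, against 8.11%). GABP, NRF1 and YY1 are known as regulators of nuclear genes for mitochondrial proteins, and a match is a description of the letters and not of binding.

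The 120 bases before the RefSeq start are shown for Mrps21, which had the largest fall of the 77 in PRMT1_KO, for Mrpl52 and Mrpl9, which had the 2 largest rises there, and for Mrpl34, the gene with the highest level and the larger of the 2 changes called in HOXA9_KO. Each runs 5′ to 3′ on the strand of its gene, and capitals mark the ETS core (either strand) in Mrpl52 and Mrpl34 and the NRF1 letters in Mrpl9. The regions are chr3:95871515-95871634 (minus strand) for Mrps21, chr14:54426789-54426908 (plus strand) for Mrpl52, chr3:94443216-94443335 (plus strand) for Mrpl9 and chr8:71464806-71464925 (plus strand) for Mrpl34, all on GRCm38.p6.
Mrps21: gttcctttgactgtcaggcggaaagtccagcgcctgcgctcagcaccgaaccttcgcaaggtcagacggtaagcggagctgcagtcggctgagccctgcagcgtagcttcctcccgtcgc
Mrpl52: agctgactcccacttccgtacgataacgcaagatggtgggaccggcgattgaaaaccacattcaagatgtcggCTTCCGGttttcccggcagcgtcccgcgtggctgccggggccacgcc
Mrpl9: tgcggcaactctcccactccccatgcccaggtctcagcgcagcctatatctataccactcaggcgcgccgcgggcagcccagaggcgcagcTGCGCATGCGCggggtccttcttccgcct
Mrpl34: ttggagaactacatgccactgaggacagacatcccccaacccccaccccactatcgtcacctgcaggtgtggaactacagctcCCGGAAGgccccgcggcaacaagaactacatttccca
None of the motifs searched was in the stretch shown for Mrps21, and its ETS core lay elsewhere in its 300 bases. Mrpl52 and Mrpl9, which both rose in PRMT1_KO, had no motif in common.

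Levels differed widely within the family and their order was nearly the same in all libraries. Per kilobase of exon, the mean level over the 12 libraries was highest for Mrpl34, a large subunit gene with a bacterial counterpart (81.9 CPM per kilobase). Next came Mrpl12 (62.0), whose protein forms the stalk that recruits translation factors, Mrpl2 (56.7), whose protein lies near the catalytic centre, Mrps21 (48.9), a small protein of the small subunit, and Mrpl52 (48.3), a large subunit protein without a bacterial counterpart. The lowest levels per kilobase were those of Mrpl33 (3.35), Mrps10 (3.5), Mrpl47 (3.8), Mrps22 (4.07) and Mrps31 (4.38). Spearman correlations of CPM, not divided by gene length, ran from 0.846 to 0.983 over the 77 genes between pairs of libraries, which share gene lengths and the same counting. The summed level was 3057 and 2772 CPM in dKO, 2909 and 3063 CPM in HOXA9_KO and 3020 and 3016 CPM in Bcat_KO, against 3291 and 3405 CPM in WT. It was 3139 and 3029 CPM in PRMT1_KO, against 3218 and 3205 CPM in WT_PRMT1. Each knockout pair was thus below its wild-type pair without overlap. The WT_PRMT1 pair was likewise below the WT pair without overlap. dKO S7 was the lowest library and WT S2 the highest of the 12.

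**Figure D1:**
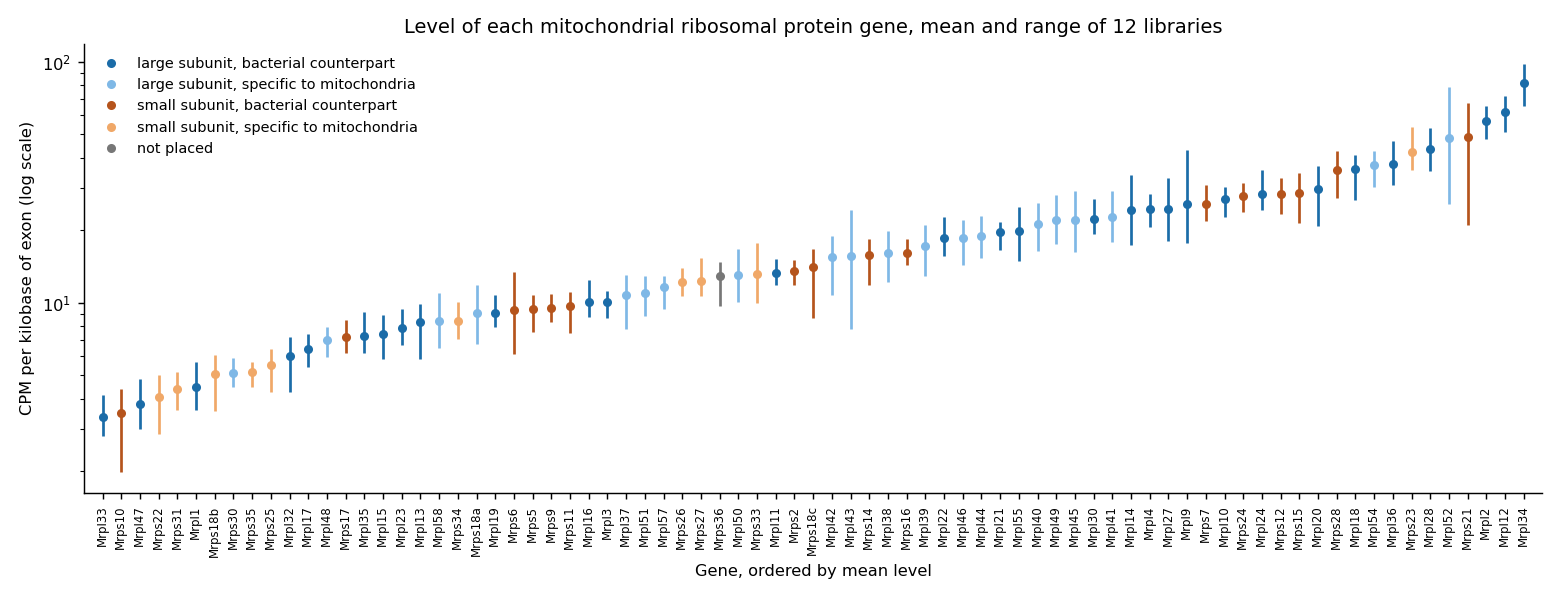
Level of each of the 77 tested genes in CPM per kilobase of exon (logarithmic axis), ordered by mean. Points are means of 12 libraries, bars run from the lowest to the highest library, and colours give the role of the protein. Mrpl52, Mrps21, Mrpl9 and Mrps10 have long bars for their level, and Mrpl34 is the highest.

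Below, changes are log2 fold changes ± SE from edgeR's quasi-likelihood test over 2 libraries per group, and a gene was called at a Benjamini-Hochberg adjusted p under 0.05 over the 17063 genes tested. The median SE of a member's change was 0.13 or 0.14 in each knockout comparison, so changes of the size seen for most members, about 0.1 to 0.3, could be called singly only in rare cases. dKO, HOXA9_KO and Bcat_KO were all compared with the same 2 WT libraries, and their values are therefore not independent of each other. The 2 wild-type groups differed in the same direction. In WT_PRMT1 against WT the change was below 0 in 54 of 77 members (70.1%), with a median of -0.075 (-0.0092 over all genes). Both WT_PRMT1 libraries were below both WT libraries in 27 members (35.1%) and above both in 7 (9.09%).

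In HOXA9_KO most of these genes had lower values than in WT, each by a small amount. Of the 77, 2 fell and none rose (2.6%), where 6.73% of all genes tested were called, 2.3% lower and 4.44% higher. The log2 change was below 0 in 70 of 77 (90.9%, against 50.5% of all genes), with a median of -0.14 (-0.0041 over all genes), and both HOXA9_KO libraries were below both WT libraries in 45 (58.4%, against 25% of all genes). The values ran from -0.50 to 0.19. Cytosolic ribosomal protein genes were likewise mostly below 0 in HOXA9_KO (86 of 89 tested, median -0.18). All 30 large subunit genes with a bacterial counterpart were below 0 (median -0.21), as were 11 of 16 small subunit genes with a bacterial counterpart (median -0.098). Mrpl34 had 45.0 and 44.8 CPM in HOXA9_KO, against 57.5 and 59.3 CPM in WT, and fell by 0.38 ± 0.11 (adjusted p = 0.0466). Mrpl12, the stalk gene, had 78.7 and 86.0 CPM in HOXA9_KO, against 105 and 100.3 CPM in WT, and fell by 0.32 ± 0.093 (adjusted p = 0.0488). In both genes the HOXA9_KO libraries lay below the WT libraries without overlap. Both calls were lost when any 1 of the 4 libraries was left out (adjusted p 0.0644 to 0.355) and with the prior of the test not made robust (0.0516 and 0.0669).

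Bcat_KO had fewer values below 0 and more calls. Of the 77, 7 fell and none rose (9.09%), where 17.2% of all genes were called, 9.76% lower and 7.48% higher, so the share called was below that of all genes. The change was below 0 in 59 (76.6%, against 53.3%), the median was -0.15 (-0.038 over all genes), and both Bcat_KO libraries were below both WT libraries in 43 (55.8%, against 32.5%). The genes that fell were Mrpl49, Mrpl43, Mrpl58, Mrpl9, Mrps14, Mrps6 and Mrps18c, with changes from -0.72 to -0.38. Mrpl49, a mitochondria-specific large subunit gene, had 33.8 and 32.8 CPM in Bcat_KO, against 47.6 and 49.8 CPM in WT, and fell by 0.55 ± 0.12 (adjusted p = 0.00404). It was the only one of the 7 that was called under every alternative run. Mrps14, a small subunit gene with a bacterial counterpart, had 45.1 and 38.7 CPM in Bcat_KO, against 56.1 and 60.2 CPM in WT (-0.47 ± 0.11, adjusted p = 0.00949).

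Mrpl58 encodes a peptidyl-tRNA hydrolase that was taken into the large subunit and can free stalled ribosomes. It had 23.2 and 21.6 CPM in Bcat_KO, against 29.7 and 34.0 CPM in WT (-0.51 ± 0.14, adjusted p = 0.0207). Mrpl43 had 19.3 and 11.8 CPM in Bcat_KO, against 25.8 and 25.2 CPM in WT (-0.72 ± 0.20, adjusted p = 0.0207). Its 2 Bcat_KO libraries were far apart, and its value was -0.42 without Bcat_KO S4. Neighbouring genes overlap a pair of these: 33.4% of the exon bases of Mrpl43 lie under Twnk on the opposite strand and 23.2% of those of Mrps18c under Gm43511 on the same strand. Without WT S2, 6 of the 7 calls were lost (adjusted p up to 0.2), and without Bcat_KO S4, WT S1 or Bcat_KO S3 the numbers lost were 4, 3 and 2. Granulocyte and erythroid markers were lower in Bcat_KO (17.5 to 29.0 and 19.6 to 29.0 summed CPM) than in WT (428.6 to 1676 and 288 to 1193), with 5 of 8 granulocyte and 7 of 8 erythroid markers called lower and Ltf, Retnlg and Trim10 at 0 in both Bcat_KO libraries. The B cell marker sum was 6883 to 9874 CPM in Bcat_KO and 2932 to 6314 CPM in WT, with 5 of 6 markers called lower. Of the T and NK cell markers 2 of 6 were called lower, and of the stromal and endothelial ones 1 of 6 higher. The part of these lists in the changes was not tested.

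The loss of both genes in dKO went with the lowest median of the 4 knockouts. Of the 77, 12 fell and 1 rose (16.9% called), where 17.7% of all genes were called, 8.52% lower and 9.15% higher. The change was below 0 in 71 (92.2%, against 49.3%), the median was -0.23 (0.0069 over all genes), and both dKO libraries were below both WT libraries in 46 (59.7%, against 29%). All 30 large subunit genes with a bacterial counterpart were below 0 (5 called lower), as were all 10 mitochondria-specific small subunit genes (1 called lower). The mitochondria-specific large subunit genes had a median of -0.31, with 6 called lower and 1 higher, and the 16 small subunit genes with a bacterial counterpart a median of -0.18 with no call.

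Mrpl28, a large subunit gene with a bacterial counterpart, had 51.4 and 48.7 CPM in dKO, against 67.7 and 72.3 CPM in WT, and fell by 0.48 ± 0.10 (adjusted p = 0.00272). Mrpl49 had 35.7 and 33.2 CPM in dKO, against 47.6 and 49.8 CPM in WT (-0.50 ± 0.12, adjusted p = 0.00535). Mrpl34 had 45.2 and 39.8 CPM in dKO, against 57.5 and 59.3 CPM in WT (-0.46 ± 0.11, adjusted p = 0.00693). In these 3 genes the dKO libraries were below the WT libraries by clear gaps. The largest change among the 12 was that of Mrps22, a small subunit gene whose human counterpart is mutated in respiratory chain disease, with 13.3 and 11.9 CPM in dKO, against 20.04 and 19.87 CPM in WT (-0.67 ± 0.22, adjusted p = 0.0458). The other genes that fell were Mrpl42, Mrpl15, Mrps18a, Mrpl37, Mrpl51, Mrpl39, Mrpl47 and Mrpl1 (-0.55 to -0.36).

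The member that rose was Mrpl52, with 65.5 and 67.1 CPM in dKO, against 49.6 and 43.9 CPM in WT (0.50 ± 0.13, adjusted p = 0.0136). Both dKO libraries were above both WT libraries in this gene alone of the 77 (1.3%, against 29.6% of all genes). Nearly all calls in dKO were lost without WT S2 or dKO S7, and fewer without WT S1 or dKO S6. Each such fit leaves 1 library in a group, and some changes shrank in it while others grew. Without WT S2 Mrpl51 changed by -0.24 and Mrpl1 by -0.63, against -0.36 and -0.54 with all libraries. Without dKO S7 Mrpl15 changed by -0.31 and Mrpl39 by -0.42, against -0.43 and -0.39. The median ran from -0.33 to -0.14 and the number below 0 from 64 to 73 when single libraries were left out. The B cell marker sum, nearly all of it the immunoglobulin gene Ighm, was 12160 to 24380 CPM in dKO and 2932 to 6314 CPM in WT, with 1 of 6 markers called higher and 4 lower. Its part in these changes was not tested.

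**Figure D2:**
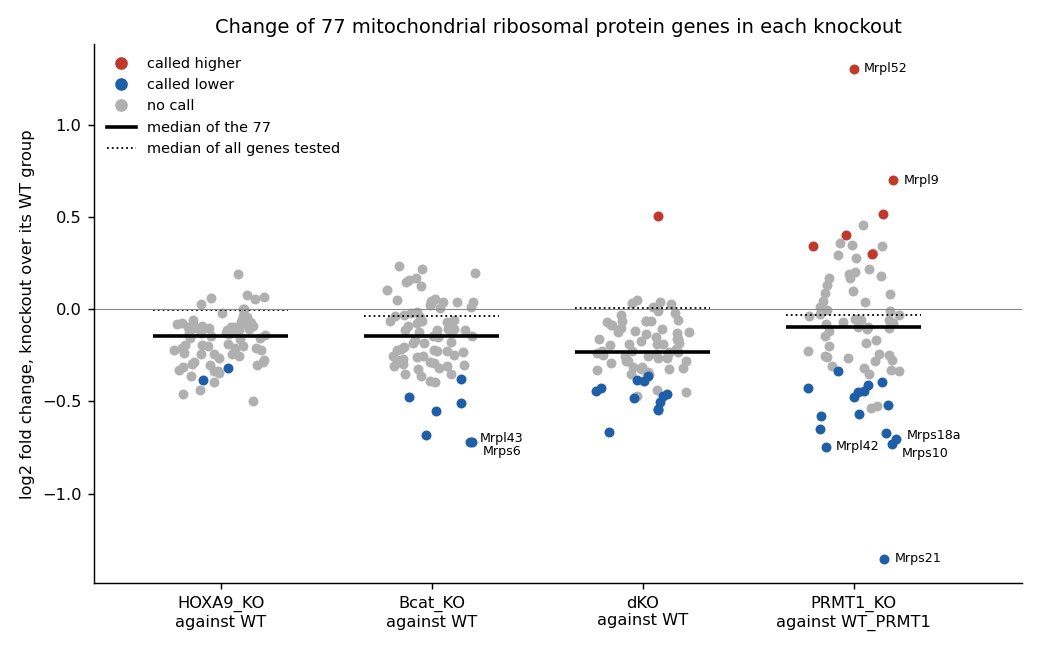
Log2 fold change of the 77 genes in each knockout against its own WT group. Each point is a gene, coloured where called higher or lower at an adjusted p under 0.05, thick lines are medians of the 77 and dotted lines medians of all 17063 genes tested. In HOXA9_KO, Bcat_KO and dKO the points lie mostly below 0, and in PRMT1_KO they spread from -1.35 to 1.30.

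Set against the single knockouts directly, dKO had called members against Bcat_KO and none against HOXA9_KO. Over all genes, too, more calls were made against Bcat_KO than against HOXA9_KO. Against HOXA9_KO no member was called by edgeR or by DESeq2 (1.75% of all genes were called by edgeR), and 5 members had an unadjusted p under 0.05. The median of that difference was -0.060 (0.0098 over all genes), and it ran from -0.16 to 0.028 when single libraries were left out. Against Bcat_KO, 5 members were lower in dKO (Mrps33, Mrpl42, Mrpl44, Mrpl38 and Mrpl37) and 3 higher (Mrpl52, Mrpl45 and Mrps14), 10.4% in all, where 28.1% of all genes were called, 12% lower and 16.2% higher. With library totals only in place of TMM scaling this split was 12 lower and 1 higher, and with RLE size factors 6 and 2. Mrpl52 had 65.5 and 67.1 CPM in dKO, against 42.5 and 36.3 CPM in Bcat_KO, and was higher by 0.75 ± 0.13 (adjusted p = 0.000537). Its call held under every alternative run.

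Mrps33, a mitochondria-specific small subunit gene, had 19.5 and 16.6 CPM in dKO, against 28 and 29.5 CPM in Bcat_KO (-0.67 ± 0.16, adjusted p = 0.00571, and 0.0636 without dKO S7). Without Bcat_KO S4 or dKO S7 6 of the 8 calls against Bcat_KO were lost, and without Bcat_KO S3 or dKO S6 3 each. The departure from additivity, the dKO change less the sum of both single changes, gave no call among members by edgeR or DESeq2 (8.43% of all genes were called by edgeR), with 10 unadjusted p-values under 0.05. Its median was 0.072 (0.036 over all genes), and the median SE of 0.19 leaves departures of that size out of reach.

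In PRMT1_KO members were called in both directions. Of the 77, 16 fell and 6 rose (28.6% called), where 32.5% of all genes were called, 16% lower and 16.6% higher. The change was below 0 in 51 (66.2%, against 51.7%), and the median was -0.098 (-0.030 over all genes). Both PRMT1_KO libraries were below both WT_PRMT1 libraries in 38 (49.4%, against 35.2%) and above both in 19 (24.7%, against 33%). The range between the quartiles of the 77 changes was 0.46 in PRMT1_KO, 0.21 in dKO, 0.17 in HOXA9_KO and 0.27 in Bcat_KO. Over all genes it was also widest in PRMT1_KO, at 1.10, and 0.75 in dKO, 0.56 in HOXA9_KO and 0.74 in Bcat_KO. With library totals only, which moved the median of all genes to -0.17, 27 members were lower and 3 higher, and the median of the members relative to all genes was -0.068. Granulocyte markers summed to 1901 to 2273 CPM in PRMT1_KO and 671 to 734 CPM in WT_PRMT1, with none of 8 called. Erythroid markers summed to 45.1 to 47.3 CPM in PRMT1_KO and 565 to 630 CPM in WT_PRMT1, with 5 of 8 called lower and 1 higher. The B cell marker sum was 4374 to 6573 CPM in PRMT1_KO and 3855 to 3863 CPM in WT_PRMT1, with 5 of 6 markers called lower. Stromal and endothelial markers summed to 163.8 to 169.1 CPM in PRMT1_KO and 390 to 666 CPM in WT_PRMT1, and T and NK cell markers to 97.4 to 100.7 CPM in PRMT1_KO and 69.8 to 71.1 CPM in WT_PRMT1, each with 2 of 6 called lower and 1 higher. The part of these lists in the changes was not tested.

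Mrps21 had 19.8 and 15.6 CPM in PRMT1_KO, against 44.3 and 46.0 CPM in WT_PRMT1. It fell by 1.35 ± 0.15 (adjusted p = 2.25e-06), which is 2.56-fold lower. Both PRMT1_KO libraries were below every other library of the series, whose lowest value was 34.3 CPM. The gene (ENSMUSG00000054312, chromosome 3, 95862634 to 95871519, minus strand) has 3 processed pseudogene copies of at least 90% identity over 200 bases or more, which held 6, 4 and 0 counts over all libraries, against 10423 for the gene.

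Mrpl52 had 87.0 and 77.5 CPM in PRMT1_KO, against 38.2 and 28.5 CPM in WT_PRMT1. It rose by 1.30 ± 0.14 (adjusted p = 1.22e-06), which is 2.47-fold higher, and both PRMT1_KO libraries were above every other library. The WT_PRMT1 libraries were the 2 lowest but for Bcat_KO S4 (36.3 CPM), and Mrpl52 was the only member called between the 2 wild-type groups. The gene (ENSMUSG00000010406, chromosome 14, 54426909 to 54429756, plus strand) had no pseudogene copy and no other gene over its exons.

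Mrpl9, a large subunit gene whose bacterial counterpart reaches out from the base of the L1 stalk, had 116 and 110.8 CPM in PRMT1_KO, against 72.3 and 67.4 CPM in WT_PRMT1. It rose by 0.70 ± 0.12 (adjusted p = 0.00014), and its PRMT1_KO values were far above all others (47.8 to 72.3 CPM). Mrpl9 (ENSMUSG00000028140, chromosome 3, 94443318 to 94451130, plus strand) was the only member called in opposite directions in separate knockouts, since it fell in Bcat_KO (-0.38 ± 0.11, adjusted p = 0.0317), which was not called without Bcat_KO S3 (0.171), WT S1 (0.163) or WT S2 (0.07). The other genes that rose were Mrpl45, whose protein holds the ribosome at the inner membrane (0.51 ± 0.13, adjusted p = 0.00467), and Mrpl2, Mrps23 and Mrpl30 (0.30 to 0.40). Mrpl45 was not called without WT_PRMT1 S10 (adjusted p = 0.079).

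Among the genes that fell, Mrpl42 had 43.0 and 39.7 CPM in PRMT1_KO, against 69.2 and 69.4 CPM in WT_PRMT1 (-0.75 ± 0.11, adjusted p = 4.01e-05). Mrps15, a small subunit gene with a bacterial counterpart, had 37.3 and 36.4 CPM in PRMT1_KO, against 57.2 and 58.4 CPM in WT_PRMT1 (-0.65 ± 0.10, adjusted p = 0.000107). Mrps10, near the lowest level per kilobase, had 17.5 and 16.0 CPM in PRMT1_KO, against 31.4 and 24.1 CPM in WT_PRMT1 (-0.73 ± 0.15, adjusted p = 0.000974). In all 3 genes the PRMT1_KO libraries were the 2 lowest of the 12. Mrpl39 (-0.67 ± 0.12, adjusted p = 0.00042), Mrps18a (-0.70 ± 0.14, adjusted p = 0.000586) and Mrpl37 (-0.58 ± 0.12, adjusted p = 0.00103), all of the mitochondria-specific part of the large subunit, fell as well. The remaining 9, Mrpl13, Mrpl28, Mrpl38, Mrpl49, Mrpl55, Mrpl58, Mrps14, Mrps25 and Mrps33, changed by -0.57 to -0.34, and 69.8% of the exon bases of Mrps25 lie under Nr2c2 on the opposite strand.

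Calls of 9 of the 22 members held under every alternative run, namely those of Mrps21, Mrpl52, Mrpl9, Mrpl42, Mrps10, Mrps15, Mrps18a, Mrpl39 and Mrpl37. Leaving out PRMT1_KO S9 or WT_PRMT1 S10 ended 10 calls each, PRMT1_KO S8 ended 9 and WT_PRMT1 S11 ended 6, with adjusted p up to 0.431. By role, 4 of 16 small subunit genes with a bacterial counterpart fell and none rose (median -0.24). Of the 20 tested mitochondria-specific large subunit genes 7 fell and 2 rose (median -0.23), whereas the 30 large subunit genes with a bacterial counterpart were even, with 3 each way (median -0.045).

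**Figure D3:**
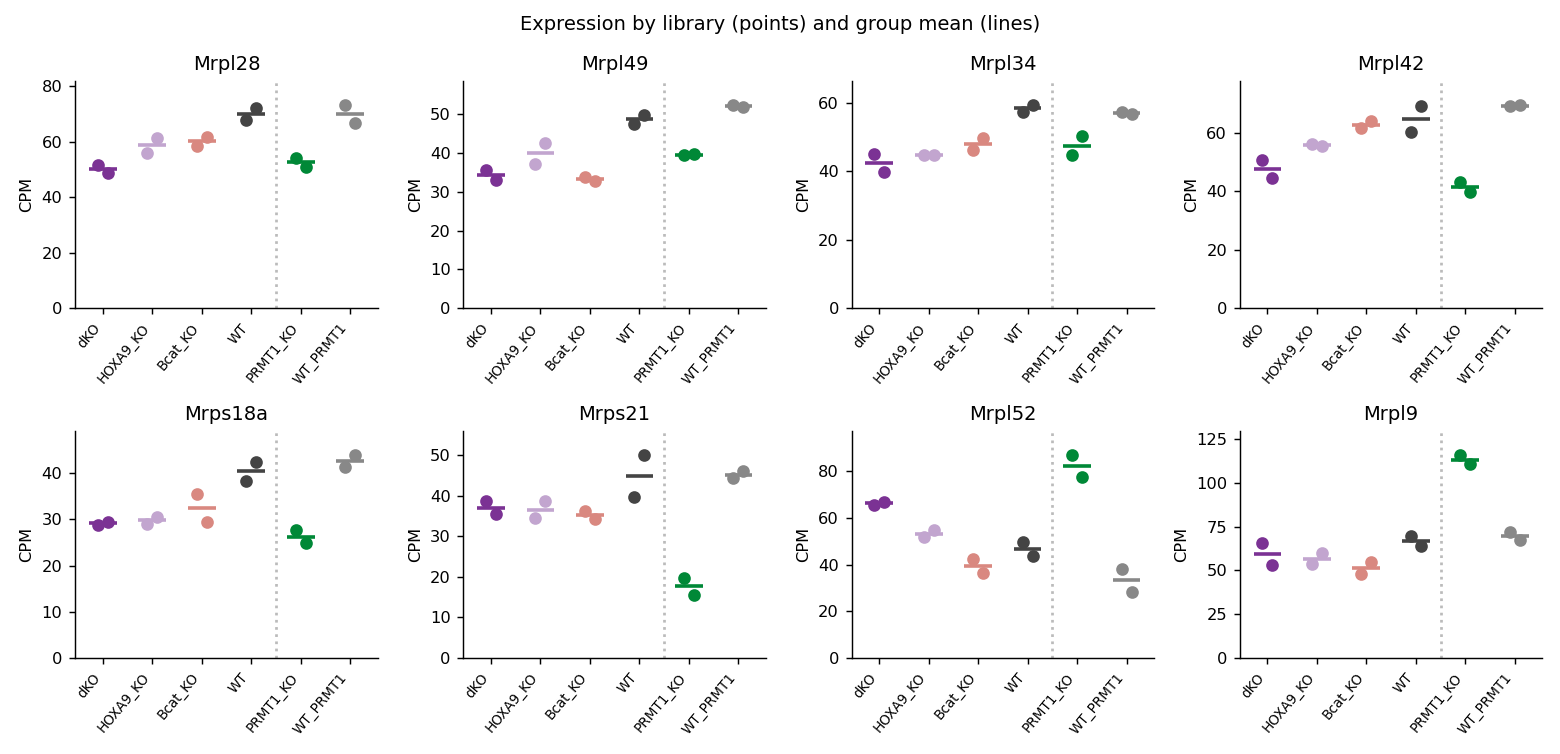
CPM of 8 genes in every library (points, 2 a group) with group means (lines), dKO, HOXA9_KO, Bcat_KO and WT left of the dotted line and PRMT1_KO and WT_PRMT1 right of it. Mrps21 is lowest and Mrpl52 and Mrpl9 are highest in PRMT1_KO, and Mrpl28, Mrpl49 and Mrpl34 are lower in all 4 knockouts than in the WT groups.

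The changes in dKO and PRMT1_KO have separate controls, and their difference was tested. It was called in 7 of 77 members (9.09%, against 15.7% of all genes), above 0 in 1 and below 0 in 6 (7.93% and 7.75% of all genes). Mrps21 changed by -0.28 in dKO and -1.35 in PRMT1_KO, a difference of 1.08 ± 0.21 (adjusted p = 0.00181). Mrpl9 changed by -0.17 in dKO and 0.70 in PRMT1_KO, a difference of -0.87 ± 0.16 (adjusted p = 0.00136). Mrpl52 changed by 0.50 in dKO and 1.30 in PRMT1_KO, so that the change had the same sign but differed by -0.80 ± 0.19 (adjusted p = 0.00741). The controls of Mrpl52 differed too, by -0.49 in WT_PRMT1 against WT. Its group means were 66.3 CPM in dKO and 82.3 CPM in PRMT1_KO, against 46.7 CPM in WT and 33.3 CPM in WT_PRMT1. The differences of Mrps21, Mrpl9 and Mrpl52 held under every alternative run.

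For Mrpl2, Mrpl20, Mrpl44 and Mrpl50 the difference lay between -0.69 and -0.46, with adjusted p of 0.0366 to 0.0396. All 4 were lost with library totals only and without dKO S7, WT S1, PRMT1_KO S8 or PRMT1_KO S9 (adjusted p up to 0.198). Leaving out WT S2, WT_PRMT1 S10 or WT_PRMT1 S11 ended 3 of them each and leaving out dKO S6 none. In these 4 genes the value was below 0 in dKO and above 0 in PRMT1_KO. With library totals only the split of the calls was 3 above 0 and 2 below, against 1 and 6. Mrpl28, Mrpl37, Mrpl39, Mrpl42, Mrpl49 and Mrps18a fell in both knockouts, 6 of the 12 that fell in dKO (50%) and of the 16 that fell in PRMT1_KO (37.5%). Over all genes tested, 805 fell in both, 55.4% of those that fell in dKO and 29.5% of those that fell in PRMT1_KO.

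**Figure D4:**
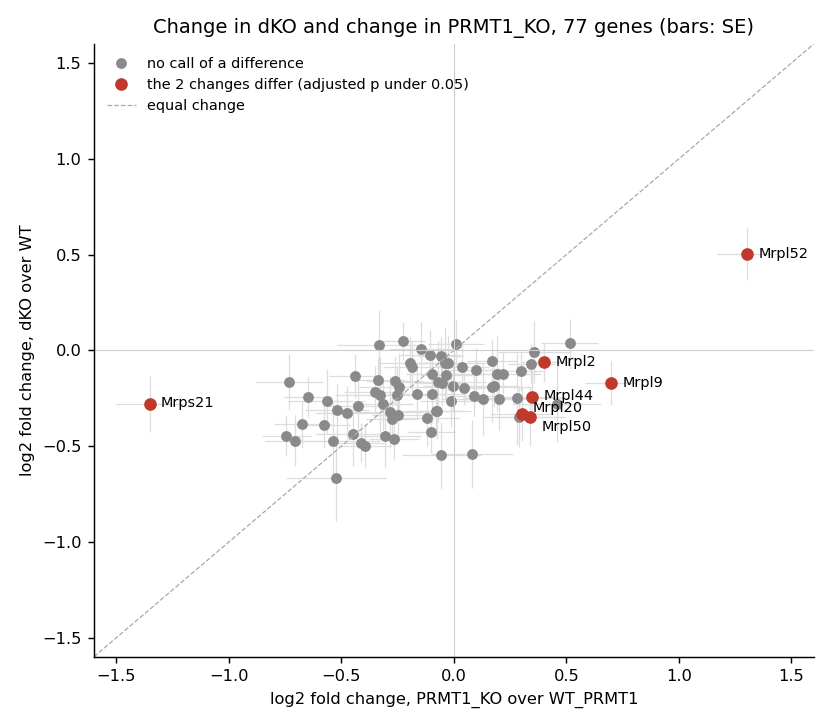
Log2 change in dKO over WT (vertical axis) against that in PRMT1_KO over WT_PRMT1 (horizontal axis) for the 77 genes, with bars of 1 SE. Red points are the 7 genes whose 2 changes differ at an adjusted p under 0.05, and the dashed line marks equal change. Mrps21 lies far to the left and Mrpl52 and Mrpl9 to the right of the other genes.

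Over the 4 knockouts, 32 members were called in at least 1 comparison with their WT group and 45 in none. At least 1 call was thus found in 41.6% of members, where it was found in 47.0% of all genes. Of the 32, 21 were called in 1 knockout (27.3% of members, against 28.2% of all genes), 10 in 2 (12.99%, against 11.97%) and 1, Mrpl49, in 3 (1.3% in 3 or 4, against 6.81%). Mrpl49 had 39.5 and 39.7 CPM in PRMT1_KO, against 52.3 and 51.9 CPM in WT_PRMT1 (-0.40 ± 0.12, adjusted p = 0.0132), a call lost when any 1 of these 4 libraries was left out (0.0765 to 0.0903). In HOXA9_KO it had 37.3 and 42.7 CPM, against 47.6 and 49.8 CPM in WT, which was not called. All 8 knockout libraries of Mrpl49 were below all 4 wild-type libraries. Between the wild-type groups, WT_PRMT1 against WT, 1 member was called (1.3%, against 7.58% of all genes and 3.87% called lower), Mrpl52, with 38.2 and 28.5 CPM in WT_PRMT1 and 49.6 and 43.9 CPM in WT (-0.49 ± 0.14, adjusted p = 0.0334). It was not called without WT_PRMT1 S11 (0.391), WT S1 (0.246) or WT S2 (0.0608).

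Among members with a known task, Mrpl12, Mrpl58, Mrpl45 and Mrpl2 had calls that are given above, and those that follow had no call against their WT group in any knockout. Mrpl10 anchors the Mrpl12 stalk, and it changed by -0.16 ± 0.12 in dKO, -0.10 ± 0.13 in HOXA9_KO, -0.11 ± 0.12 in Bcat_KO and -0.26 ± 0.13 in PRMT1_KO, with no call. Mrps12, whose bacterial counterpart takes part in decoding, changed by -0.35 ± 0.14 in PRMT1_KO (adjusted p = 0.0589) and by -0.26 to -0.016 in the other knockouts. Mrpl3 and Mrpl27, near the catalytic centre, had no call in the 4 knockouts (-0.31 to 0.36). Mrpl41 was below 0 in each (-0.46 to -0.31) and was not called. Mrps30 changed by -0.19 to -0.086 and Mrps36, the unplaced gene, by -0.33 to 0.15, both with no call. Mrpl44, an RNase III-like protein of the large subunit, changed by -0.24 ± 0.13 in dKO and 0.35 ± 0.13 in PRMT1_KO (adjusted p = 0.249 and 0.0527).

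The ratio of summed large to small subunit levels was higher in PRMT1_KO, while the median levels of both subunits were lower. The summed level per kilobase of the large subunit genes over that of the small subunit genes was 2.83 and 2.85 in PRMT1_KO, against 2.38 and 2.32 in WT_PRMT1. In the other libraries the ratio was 2.42 and 2.42 in dKO, 2.36 and 2.42 in HOXA9_KO and 2.46 and 2.48 in Bcat_KO, against 2.53 and 2.36 in WT. Both PRMT1_KO values were above those of all other libraries. Without Mrpl52 and Mrps21 the ratio was 2.82 and 2.82 in PRMT1_KO, against 2.67 and 2.63 in WT_PRMT1, so that these 2 genes made up most of the difference. With 2 libraries against 2 no permutation test of this ratio can reach 0.05, and none was run. The median level per kilobase of the large subunit genes was 16.8 and 16.0 CPM in PRMT1_KO, against 18.3 and 17.1 CPM in WT_PRMT1, and that of the small subunit genes was 10.7 and 11.1 CPM in PRMT1_KO, against 12.2 and 12.45 CPM in WT_PRMT1.

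Calls in these genes were set beside calls in the neighbours that start from the same stretch of DNA. Over all genes tested, 17.7% were called in dKO, 6.73% in HOXA9_KO, 17.2% in Bcat_KO and 32.5% in PRMT1_KO. Whether calls coincided within pairs more or less often than these shares give was not tested. There were 24 divergent pairs, since Mrpl46 and Mrps11 are partners of each other. In dKO, 3 of the 24 members listed and 4 of their partners fell, with both called in 1 pair. Ncapd2, a condensin subunit whose start lies 100 bases from that of Mrpl51, fell by 0.76 ± 0.11 (adjusted p = 0.000134) beside a change of -0.36 ± 0.12 in Mrpl51 (adjusted p = 0.038). The endonuclease subunit gene Eme1 fell by 1.40 ± 0.29 (adjusted p = 0.00225) and the spindle gene Ska3 by 1.25 ± 0.27 (adjusted p = 0.00314), while their partners Mrpl27 and Mrpl57 changed by -0.0094 ± 0.16 and 0.0098 ± 0.14. Another partner that fell was Mtbp (-0.64 ± 0.20, adjusted p = 0.033), beside -0.13 ± 0.11 in Mrpl13. The medians over the pairs were -0.23 for the member and -0.15 for the partner.

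In HOXA9_KO neither gene of any pair was called. In Bcat_KO 2 members and 2 partners fell and 3 partners rose, and the only pair with both called was Mrpl49 (-0.55 ± 0.12) and Fau (-0.35 ± 0.082, adjusted p = 0.00771), which both fell. In PRMT1_KO, 5 partners fell (Cyb5rl, Ska3, Ncapd2, Eme1 and Mtbp) and 3 rose (Eme2, Fau and Wdfy1), and both genes were called in 3 pairs. Mrpl37 fell by 0.58 ± 0.12 and its partner Cyb5rl fell as well (-1.85 ± 0.34, adjusted p = 0.000363), and Mrpl13 fell by 0.44 ± 0.11 beside a fall of Mtbp (-0.80 ± 0.20, adjusted p = 0.00464). The pair of Mrpl49 and Fau, whose starts lie 59 bases apart, went in opposite directions there: Mrpl49 fell by 0.40 ± 0.12 and Fau, which encodes a cytosolic ribosomal protein fused to a ubiquitin-like one, rose by 0.37 ± 0.082 (adjusted p = 0.00196). The differences between members and partners were not tested.

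**Figure D5:**
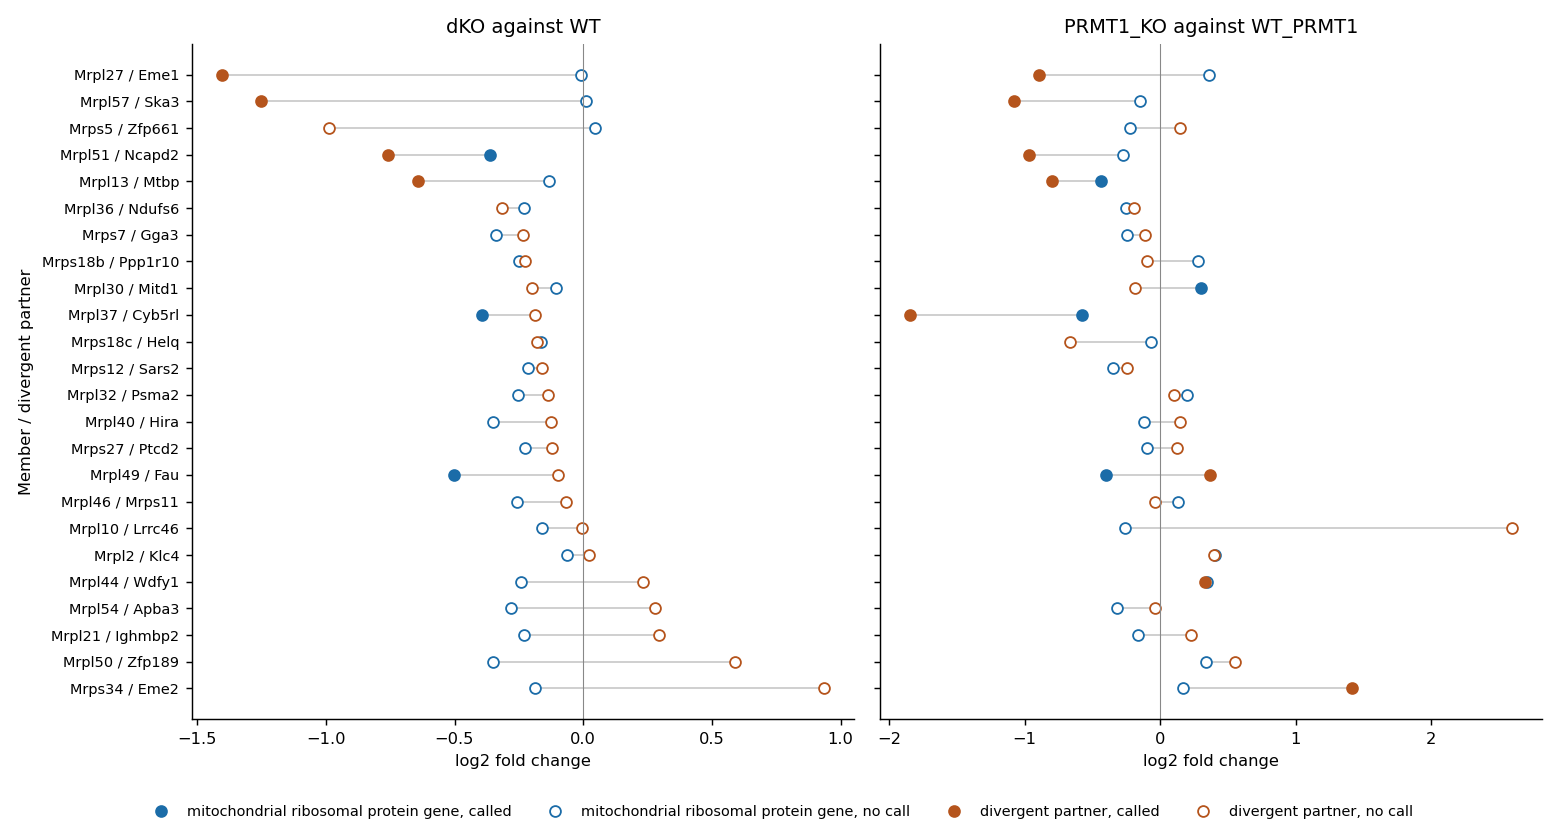
Log2 fold change of each mitochondrial ribosomal protein gene (blue) and its divergent partner (brown) for 24 pairs, ordered by the partner's change in dKO. Filled points are called at an adjusted p under 0.05. Eme1, Ska3 and Ncapd2 lie far left of their partners in both panels.

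Other genes of mitochondrial translation were counted from lists of the same roles. For scale, the shares of all genes tested that were called lower and higher were 8.52% and 9.15% in dKO and 2.3% and 4.44% in HOXA9_KO. They were 9.76% and 7.48% in Bcat_KO and 16% and 16.6% in PRMT1_KO. No list was tested against these shares. Of 5 mitochondrial ribosomal proteins with other symbols, none was called in dKO, HOXA9_KO or Bcat_KO, and 2 fell in PRMT1_KO: Ptcd3, a small subunit protein (-0.79 ± 0.12, adjusted p = 4.86e-05), and Dap3, a GTP-binding protein of the small subunit (-0.56 ± 0.12, adjusted p = 0.00101). Of 17 mitochondrial tRNA synthetases, 3 fell in dKO, none was called in HOXA9_KO, 1 fell in Bcat_KO, and in PRMT1_KO 6 fell and 2 rose. Tars2, the threonyl enzyme, fell in dKO (-0.46 ± 0.12, adjusted p = 0.0131) and in PRMT1_KO (-1.16 ± 0.12, adjusted p = 1.62e-06). Of 13 tested translation factors, 2 fell in dKO, among them the elongation factor Tufm (-0.34 ± 0.092, adjusted p = 0.0155), and in PRMT1_KO 3 fell and 1 rose, the membrane insertase Oxa1l (0.75 ± 0.099, adjusted p = 1.44e-05). Of 26 assembly factors, 1 fell in dKO, 1 rose in Bcat_KO, and in PRMT1_KO 3 fell and 4 rose, with the 12S rRNA methyltransferase Tfb1m at -1.28 ± 0.21 (adjusted p = 0.000142).

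The RNA core of the same ribosome is encoded in the mitochondrial genome. The 12S rRNA mt-Rnr1 had 314 and 232 CPM in dKO, 268 and 285 CPM in HOXA9_KO and 292 and 302 CPM in Bcat_KO, against 504 and 391 CPM in WT. It fell in all 3 (-0.71 ± 0.15, -0.70 ± 0.15 and -0.59 ± 0.15), and the 16S rRNA mt-Rnr2 fell in all 3 as well (-0.75 ± 0.11, -0.70 ± 0.11 and -0.37 ± 0.11). In PRMT1_KO mt-Rnr1 had 1253 and 1104 CPM, against 638 and 582 CPM in WT_PRMT1, and rose by 0.95 ± 0.15 (adjusted p = 0.00101), and mt-Rnr2 was not called. The sources used here do not say how rRNA was removed from the libraries, and its part in these values was not tested.

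Cytosolic ribosomal protein genes went another way in PRMT1_KO. Of 89 tested, 76 rose and none fell there (median 0.47), whereas in dKO 1 rose and 7 fell (median -0.043). In HOXA9_KO the counts were 1 and 7 (median -0.18), and in Bcat_KO 3 and 34 (median -0.18). The change was below 0 in 86 of the 89 in HOXA9_KO, 70 in Bcat_KO, 62 in dKO and 6 in PRMT1_KO. Of 10 regulators of mitochondrial gene expression, none was called in dKO or HOXA9_KO. In Bcat_KO the coactivator Pprc1 rose (0.96 ± 0.17, adjusted p = 0.00135) and Gabpa, the DNA-binding subunit of GABP, fell (-0.33 ± 0.099, adjusted p = 0.0318). In PRMT1_KO 3 rose, namely Myc (0.75 ± 0.11, adjusted p = 2.93e-05), the nuclear receptor Esrra (0.69 ± 0.14, adjusted p = 0.0012) and Yy1 (0.37 ± 0.082, adjusted p = 0.00208), and Gabpb1, a subunit of GABP, fell (-0.33 ± 0.10, adjusted p = 0.018). In bulk samples, fewer cells of a type and less RNA per cell cannot be told apart for any of these genes.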

How the data were processed

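The deposited file holds raw counts per gene for 12 libraries, made by the authors. Trim Galore 0.6.6 for trimming, STAR 2.7.6a for alignment, featureCounts for counting and the build GRCm38 are named in the submitters' processing notes. Per the labels, libraries came from a directional kit. The sources used here give neither the strand setting nor the annotation release. In each library 4.12 to 6.21 genes had a count of 2 for every gene with a count of 1, so both mates of a pair appear to have been counted.

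Identifiers were matched to GENCODE M21 (55230 of 55471 genes, 54937 with identical coordinates). Columns are named by group and S tag, and those named control were read as WT. The test was that of edgeR 4.0.16 in R 4.3.3 (filterByExpr at a minimum count of 10, TMM, quasi-likelihood test with a robust prior, 1 mean per group, 12 libraries, 6 residual degrees of freedom, 9 comparisons). The robust prior was chosen with the counts it gives known. SE is the absolute log2 change over the square root of F. CPM values use TMM-scaled totals. The members, lists and tests were chosen with earlier results of these data known.

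Genes were named by a rule: per comparison up to 10 called members a direction by adjusted p, the 5 highest and lowest per kilobase, members of set roles, and up to 4 called genes of each other list. Not every gene that this rule names is reported here. Divergent partners, and the called members beyond 10 a direction, were named after their values were seen. Alternatives were RLE size factors, library totals, no filter, a mean of at least 5 CPM, fits of the compared groups only, a prior not made robust (chosen after seeing the data), DESeq2 1.42.0, and leaving out each library. On simulated counts the test recovered 39.1% of genes changed by 1 on the log2 scale for dKO against WT (192 genes) and 39.6% for PRMT1_KO against WT_PRMT1, and 0.524% of those changed by 0.5 in each, with at most 9 calls among unchanged genes. Promoters are from RefSeq. Python 3.11.15, pandas 2.3.3 and matplotlib 3.10.9 were used.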

Additional observations from a re-analysis of the deposited data

Results flagged for a closer look

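The log2 change in dKO less that in PRMT1_KO, tested as a difference, passed an adjusted p of 0.05 in 7 members. It was 1.08 for Mrps21, -0.87 for Mrpl9, -0.80 for Mrpl52, -0.69 for Mrpl50, -0.63 for Mrpl20, -0.59 for Mrpl44 and -0.46 for Mrpl2. Mrps21 was the only 1 of the 7 with a positive difference, since it was at 38.7 and 35.5 CPM in dKO and at 19.8 and 15.6 CPM in PRMT1_KO. Mrpl50 had 22.6 and 21.4 CPM in dKO, against 29.4 and 26.6 CPM in WT, and 35.5 and 32 CPM in PRMT1_KO, against 24.9 and 28.4 CPM in WT_PRMT1. Mrpl20 had 47.7 and 34.5 CPM in dKO, against 54.3 and 49.0 CPM in WT, and 60.3 and 61.5 CPM in PRMT1_KO, against 53.8 and 45.0 CPM in WT_PRMT1. The differences of Mrpl50 and Mrpl20 were not called without dKO S7 (adjusted p 0.08 and 0.14).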

How the results depend on the processing

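No paired analysis was possible because the table's columns carry S tags and no replicate numbers. Members called in HOXA9_KO were 2 in the fit reported, 4 with RLE size factors or a mean of at least 5 CPM, 1 with library totals only, 0 without a filter or with the prior not made robust, and 5 with DESeq2. With only the groups compared there were 3 in Bcat_KO, 8 in dKO, 3 for dKO against Bcat_KO and 11 for the dKO change minus the PRMT1_KO change. Without a filter there were 8 in dKO, 4 for dKO against Bcat_KO and 1 for additivity. Library totals only gave 13 for dKO against Bcat_KO. The prior not made robust gave 0 for WT_PRMT1 against WT. In each case the cause was not tested. Leaving out single libraries gave 0 calls in HOXA9_KO, 1 to 6 in Bcat_KO, 0 to 9 in dKO, 12 to 16 in PRMT1_KO, 0 for dKO against HOXA9_KO, 2 to 8 for dKO against Bcat_KO, 0 to 3 for additivity, 3 to 12 for the dKO change minus the PRMT1_KO change, and 0 to 1 for WT_PRMT1 against WT. A library left alone in its group was assumed to vary like the other groups. Of 4815 repeats over 45 members, 190 lost a call, 71 gained one and 0 changed the sign of a called value. Changes near 0.5 on the log2 scale were rarely recovered in simulated counts over genes at large, and recovery among the members alone was not tested. In that simulation 191 of 16114 tested genes were changed, whereas 1149 to 5554 genes were called in the 4 knockouts. The Benjamini-Hochberg cut depends on how many genes change, so the simulated recovery need not hold for these data. In the fit reported, 5 members changed by more than 0.5 in dKO and 5 in Bcat_KO, and all of these were called. In PRMT1_KO 14 members did, and not all of these were called. The median SE of a member's change was 0.13 or 0.14 in each knockout, and absent calls do not show unchanged genes.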
